A study of Homo sapiens with 2 samples.

Results

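The 3′ UTR peaks of the JARID2 map were the 1021 peaks whose deposited annotation begins with 3′ UTR, out of 67071 listed peaks. They made up 1.52% of the list (95% exact interval 1.43 to 1.62). Peaks within 3 kb of a transcription start site are annotated as promoter peaks. The smallest distance of a 3′ UTR peak to its named start site was 3001 bp. The class thus leaves out peaks on 3′ UTRs that lie within 3 kb of a start site. The map came from chromatin immunoprecipitation followed by sequencing (ChIP-seq) in untreated cells of MDA-MB-231, a human breast cancer line of the triple-negative type. There was 1 library precipitated with a polyclonal JARID2 antibody and 1 input library without antibody. Both were made from cells fixed with 1% formaldehyde. The deposited peak list of the JARID2 ChIP library was analysed here. With 1 library per group no value has a replicate check, and each tag count (reads in a peak), fold enrichment (ChIP over the caller's background) and false discovery rate (FDR) was taken from the authors' table. The line stands for 1 tumour, and no group without JARID2 was analysed here, so antibody specificity cannot be read from these values.

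JARID2 binds DNA and joins the Polycomb complex PRC2 as an accessory protein. PRC2 is a repressor whose catalytic subunit EZH2 methylates histone H3 on lysine 27. JARID2 is known for guiding PRC2 to CpG-rich promoters of developmental genes in embryonic stem cells. The 3′ UTR is the part of the last exon or exons that follows the stop codon, and in the mRNA it holds binding sites for microRNAs and regulatory proteins. A ChIP peak there is a stretch of DNA, annotated to a 3′ UTR, that was recovered with the antibody. It says nothing of the mRNA itself.

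ZEB2 named 1 of the highest 3′ UTR peaks. Its mRNA is a textbook target of the miR-200 family, which acts through the ZEB2 3′ UTR and keeps cells epithelial. The mature sequences of 4 members of that family are shown because they are the sequences this 3′ UTR is known to answer to. Whether the peak holds a matching site was not analysed here. They are RefSeq sequences annotated on GRCh38.p14, written 5′ to 3′ with the seed (bases 2 to 8) in capitals.
hsa-miR-200b-3p: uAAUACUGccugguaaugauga
hsa-miR-200c-3p: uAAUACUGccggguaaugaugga
hsa-miR-200a-3p: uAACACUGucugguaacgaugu
hsa-miR-141-3p: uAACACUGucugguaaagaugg
The first pair shares the seed AAUACUG and the other pair shares AACACUG. MIR200B and MIR200A lie on chromosome 1, and MIR200C and MIR141 on chromosome 12.

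Most 3′ UTR peaks were as low as the rest of the list, and a few were among the highest. Their median fold enrichment was 5.95 (95% exact interval of the median 5.82 to 6.06, interquartile range 5.22 to 6.75), and over all peaks it was also 5.95 (5.28 to 6.85). They held a median of 14 tags (11 to 18), against 12 (10 to 16) over all peaks. Their median width was 542 bp (456 to 677), against 510 bp (443 to 634). Fold enrichment ran from 3.07 to 60.85 and tags from 9 to 261. Many peaks shared a fold value. Of the 1021 peaks, 101 had exactly 6.18, 68 had 7.06 and 67 had 5.3.

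Of the 1021 3′ UTR peaks, 14 had an FDR of at most 5%, or 1.37% (0.752 to 2.29), against 1.24% of all peaks. The share of members was thus near the background of the list. At an FDR of at most 20% the counts were 53 peaks, or 5.19% (3.91 to 6.74), against 4.15% of all peaks. A fold enrichment of at least 10 was reached by 16 peaks, or 1.57% (0.898 to 2.53), against 1.04% of all peaks. An FDR above 40% was given to 64.2% of 3′ UTR peaks (61.1 to 67.1), against 70.3% of all peaks. These intervals cover counting error only, and no test of a difference between classes was made.

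Set beside the other gene-body classes, the 3′ UTR peaks lay close to the exon peaks. Among 1493 exon peaks 1.21% (0.716 to 1.90) had an FDR of at most 5%, and the median fold was 5.91. Among 1150 peaks just downstream of genes the share was 0.870% (0.418 to 1.59), with a median of 5.89. Among 24930 intron peaks it was 0.325% (0.258 to 0.404), with a median of 5.95. Promoter peaks, at 4.29% (3.95 to 4.64), and the 145 5′ UTR peaks, at 4.14% (1.53 to 8.79), had larger shares. The intervals of 3′ UTR, exon and downstream peaks overlapped each other, and those of the 3′ UTR and the intron peaks did not.

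**Figure D1:**
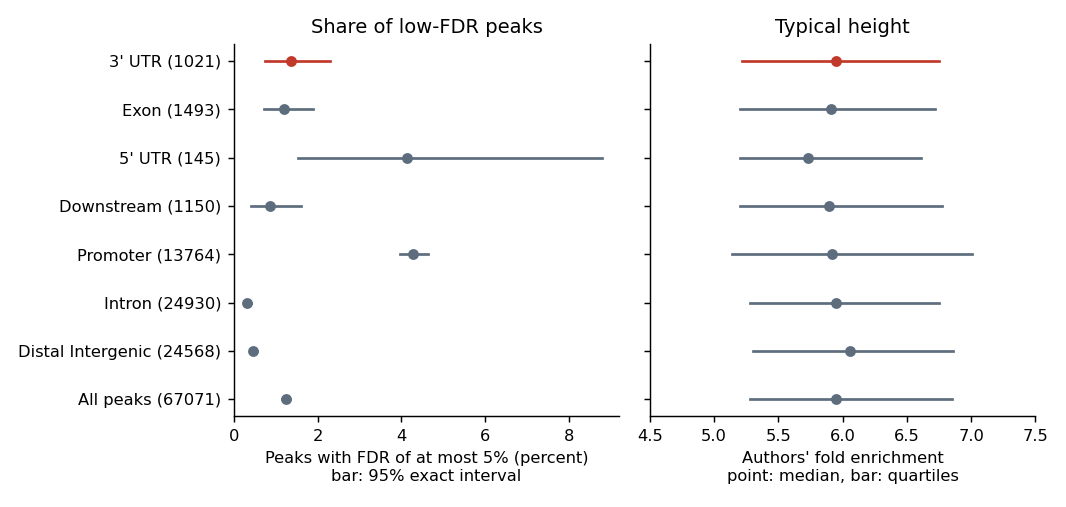
Share of peaks with an FDR of at most 5% (left, percent, bars are 95% exact intervals) and authors' fold enrichment (right, points are medians, bars are quartiles) for each annotation class of the 1 JARID2 ChIP library, with the number of peaks in brackets. The 3′ UTR class (1.37%) lies near exon peaks (1.21%), and the medians of the classes run from 5.73 for 5′ UTR peaks to 6.06 for distal intergenic peaks.

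The share of 3′ UTR peaks in the list was 2.77% of the 253 peaks with an FDR of 0 (1.12 to 5.62). It was 1.20% (0.486 to 2.47) of those above 0 and up to 5%, and 2.0% (1.43 to 2.73) of those up to 20%. It was 1.83% (1.63 to 2.04) of those up to 40% and 1.39% (1.29 to 1.5) above that. The shares did not fall or climb steadily with the FDR.

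At matched tag counts the median folds inside and outside the class were close. Among peaks with 9 or 10 tags the median fold was 6.06 for the 232 3′ UTR peaks and 6.06 for all other peaks. Among peaks with 17 to 25 tags it was 5.74 for 219 3′ UTR peaks and 5.56 for other peaks. Peaks of 26 tags or more made up 8.62% of the 3′ UTR peaks, against 6.16% of other peaks, and had medians of 5.5 and 5.56. All 14 3′ UTR peaks with an FDR of at most 5% had 29 tags or more. In that richest bin 15.9% of the 3′ UTR peaks reached this FDR, against 19.2% of other peaks.

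**Figure D2:**
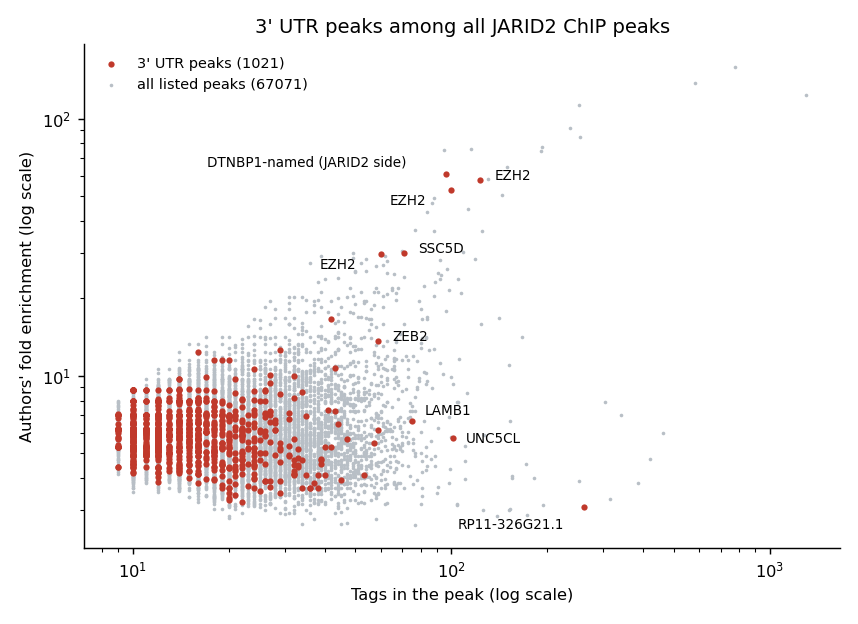
Tags per peak (x, log scale) and authors' fold enrichment (y, log scale) for the 1021 3′ UTR peaks (red) and all 67071 listed peaks (grey). Most red points lie in the body of the grey cloud, and the 5 highest (the peak beside JARID2, 3 in EZH2 and 1 named for SSC5D) are at 29.62 or more, while RP11-326G21.1 holds the most tags, 261, at a fold of 3.07.

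The class label was checked against the transcripts that the list itself names. The list gives each peak the transcript with the nearest transcription start site (TSS), which need not be the transcript whose 3′ UTR holds the peak. The named transcript overlapped 276 of the 1021 peaks (27.0%, 24.3 to 29.9) by at least 1 base. Some protein-coding transcript named anywhere in the list spanned 602 peaks (59.0%). For 383 of these the spanning gene was the named gene, and for 219 it was another. Gene names given to 3′ UTR peaks are therefore names of the nearest start site, and the spanning gene is given below where it was another. The remaining 419 peaks had no listed protein-coding transcript over them, and their host was not determined here.

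Most of the spanned peaks lay at the end of their transcript. Their centre was a median of 1523 bp from the 3′ end of the nearest-ending spanning transcript (interquartile range 336 to 8507 bp), and 254 of 602 (42.2%) were within 1 kb. By comparison 11.7% of the spanned exon peaks and 0.507% of the spanned intron peaks were within 1 kb of a 3′ end. The rule chose the peaks by annotation, so this is a check of the label and not a finding. In all, 429 centres lay within 5 kb of the end, 79 lay 5 to 20 kb from it and 94 lay more than 20 kb from it. By these transcripts, the last group lay inside gene bodies.

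Median height was much alike at all distances from the 3′ end. The median fold was 6.02 (5.82 to 6.14) within 1 kb of the end, 6.06 (5.82 to 6.18) at 1 to 5 kb and 5.79 (5.46 to 5.95) beyond 5 kb. It was 5.95 (5.8 to 6.14) for peaks with no listed spanning gene, and the 4 intervals overlapped. The numbers with an FDR of at most 5% were 3 of 254, 1 of 175, 4 of 173 and 6 of 419. All 4 of those beyond 5 kb were in EZH2.

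**Figure D3:**
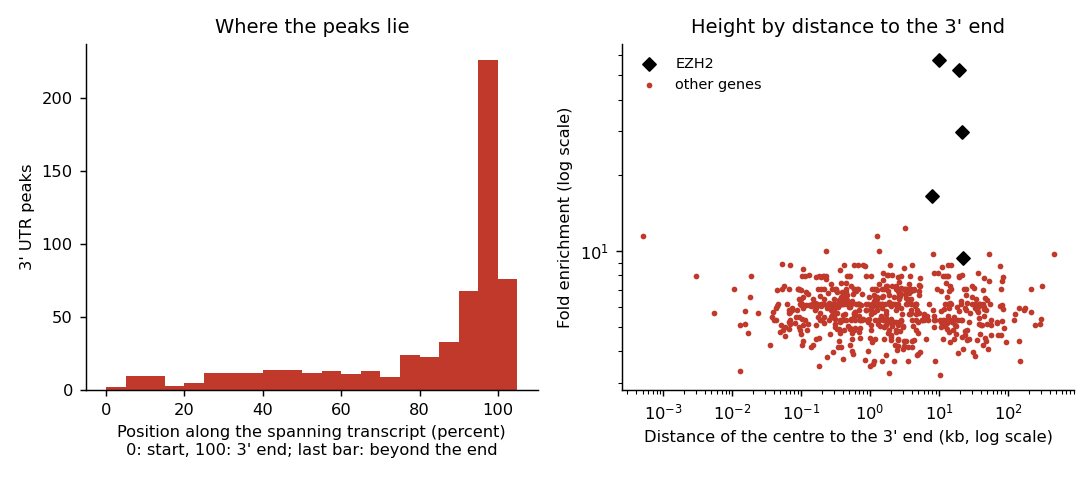
Left, number of 3′ UTR peaks by position along the listed protein-coding transcript that spans them (percent of its length, 602 peaks). Right, authors' fold enrichment (log scale) by distance of the peak centre to that transcript's 3′ end (kb, log scale), with the 5 EZH2 peaks as black diamonds. The tallest bars are at the end of the transcripts, and the 4 highest points on the right are EZH2 peaks 7.77 to 21.3 kb from the 3′ end.

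The highest 3′ UTR peak lay at the 3′ side of JARID2. It was named for DTNBP1, which encodes dysbindin, a subunit of a complex that builds lysosome-related organelles. On chromosome 6 (15519961 to 15520741, hg19) it had a fold enrichment of 60.85, 96 tags (95% Poisson interval 77.8 to 117) and an FDR of 0. It ranked 12 among all 67071 peaks by fold. The peak began 2162 bp after the last peak on a JARID2 exon. That exon was annotated as 17 of 18, so the annotation counts 1 more JARID2 exon further on, and whether the 3′ UTR peak lies in it was not determined here. It ended 2291 bp short of the nearest of the 5 listed DTNBP1 transcripts, which run on the minus strand and so end towards it. DTNBP1 is the next protein-coding gene after JARID2 in the RefSeq order, and no listed protein-coding transcript spans the peak. The 3 peaks annotated to DTNBP1 introns had folds of 4.47 to 5.46 and FDRs of 41.65% or more.

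Among the neighbouring JARID2 peaks, those in 5′ UTRs and 3 of the 5 on exons were high, and those in introns were low. The 4 5′ UTR peaks of JARID2 had a median fold of 42.49, the 5 exon peaks 74.91 and the 6 intron peaks 5.58. Of these, 4, 3 and 0 had an FDR of at most 5%. The 3′ UTR peak, with 60.85, lay within the range of the exon peaks (8.32 to 123.69) and of the 5′ UTR peaks (25.01 to 76.4). It was above every intron peak, the highest of which was 6.55. The highest peak of the locus was of the promoter class, at 137.44 with 583 tags and an FDR of 0 (15500789 to 15501740). That promoter peak lay between the peaks on JARID2 exons 7 and 10. JARID2 is also the gene of the protein that the antibody was raised against, and its part in these values was not tested.

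EZH2, the catalytic subunit of PRC2, held 5 of the 3′ UTR peaks, more than any other spanning gene. The highest, on chromosome 7 (148514171 to 148514756), had 57.62 and 123 tags (102 to 147). The next had 52.61 and 100 tags (148523507 to 148523961). The third had 29.62 and 60 tags (148525561 to 148526095), and all 3 had an FDR of 0. The next in height had 16.54, 42 tags and an FDR of 0.310% (148511883 to 148512796), and the lowest 9.35, 27 tags and 12.2% (148526584 to 148527230). Only the peak of 16.54 was named for EZH2. The other 4 carried the name of RNU7-20P, a small RNA pseudogene with a start site inside the gene.

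None of the 5 lay at the end of the long EZH2 transcript. Their centres were 7.77 to 22.3 kb upstream of its 3′ end at position 148504475, which is 70.6% to 89.8% of the way along. The list gave EZH2 no peak of the exon class. The 1 intron peak had 5.32 and an FDR of 7.5%, and the 1 5′ UTR peak had 21.83 and an FDR of 0. Over the 11 peaks of the locus, 4 of the 5 3′ UTR peaks, the 5′ UTR peak and 2 of the 4 promoter peaks had an FDR of at most 5%. The highest promoter peak, 113.02, lay next to the highest 3′ UTR peak. Which transcript gave these places their 3′ UTR annotation was not determined here.

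**Figure D4:**
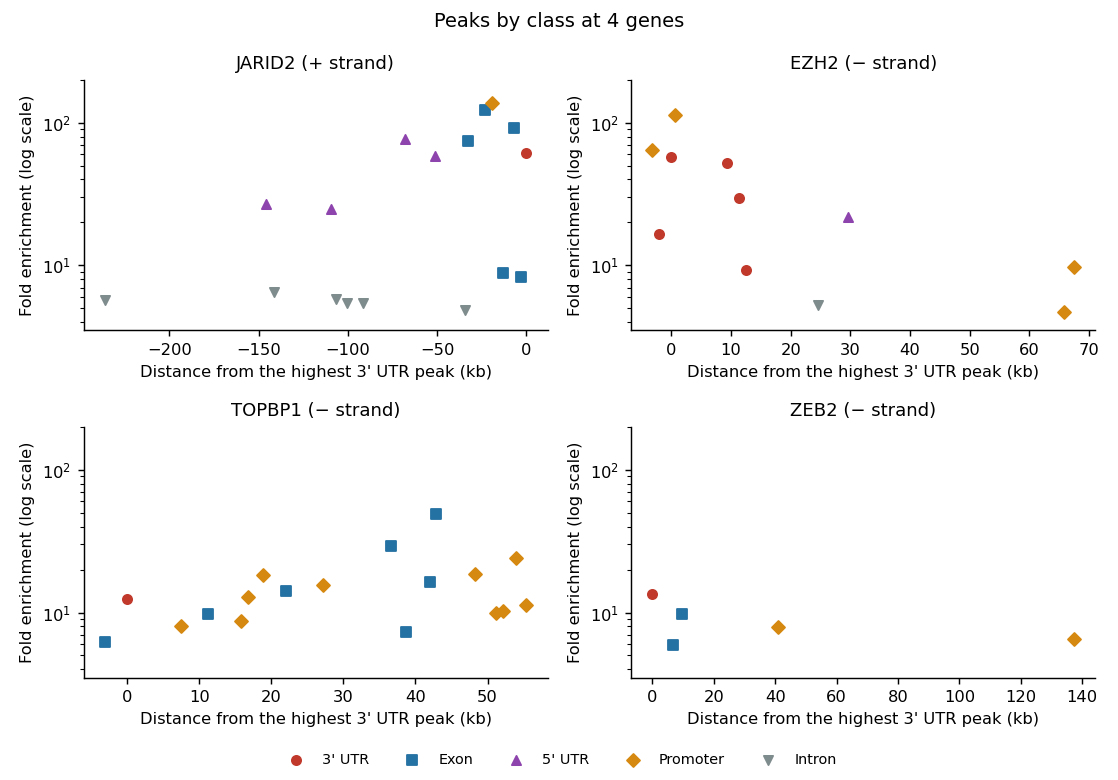
Authors' fold enrichment (log scale) of every peak in the JARID2, EZH2 and TOPBP1 loci and of every peak named for ZEB2, by distance in kb from the centre of the highest 3′ UTR peak of the locus along the genome, with colour and shape giving the class. At JARID2 the 3′ UTR peak (60.85) stands among the high exon and 5′ UTR peaks and above the intron peaks (4.85 to 6.55), and the 5 EZH2 3′ UTR peaks run from 9.35 to 57.62.

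TOPBP1, a scaffold that activates the ATR checkpoint kinase, had 1 3′ UTR peak of 12.36 with 16 tags and an FDR of 8.2%. It lay on chromosome 3 (133320027 to 133320404), and overlapped the named transcript. TOPBP1 exon peaks had folds of 6.18 to 49.03 and a median of 14.13, with 3 of 7 at an FDR of at most 5%. The 10 promoter peaks of the locus had folds of 8 to 24.01 and a median of 12.135, with 5 at an FDR of at most 5%. No intron peak was annotated to the gene. The 3′ UTR peak was thus close to the medians of the exon and promoter peaks but rested on few tags (95% Poisson interval 9.15 to 25.98). At KDM1A, the other locus of high gene-body peaks, 8 of 12 peaks had an FDR of at most 5% and none was annotated to a 3′ UTR. The highest KDM1A peak, 84.67 with 253 tags and an FDR of 0, lay across the end of the listed transcripts at position 23410182 (23409610 to 23410322). It was classed as a promoter peak, the class given within 3 kb of a start site.

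Outside those 4 loci 1014 3′ UTR peaks remained, and 9 of them (0.888%, 0.407 to 1.68) had an FDR of at most 5%, against 1.20% of all other peaks outside the loci. The 5 low-FDR peaks inside the loci were 4 at EZH2 and the 1 beside JARID2. The tags of the 7 locus members were 2.79% of all tags in 3′ UTR peaks.

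SSC5D, which encodes a secreted scavenger receptor, named the highest 3′ UTR peak outside the loci. It had a fold of 30.02, 71 tags (55.5 to 89.6) and an FDR of 0 on chromosome 19 (56014545 to 56015629). The 2 other peaks within 20 kb were promoter peaks of at most 8.08, and none had an FDR of at most 5%. No listed transcript of a protein-coding gene spanned it. The peaks at EZH2 and beside JARID2 had 2 to 6 such low-FDR neighbours.

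ZEB2, a zinc finger repressor of E-cadherin that drives the epithelial to mesenchymal transition (EMT), named a 3′ UTR peak of 13.58. It lay on chromosome 2 (145146609 to 145147648), was 1040 bp wide and held 59 tags (44.9 to 76.1) with an FDR of 0. No listed protein-coding transcript spanned it, and the named start site was 16.3 kb away. A second ZEB2 peak lay on exon 8 of 10, with 9.71, 66 tags and an FDR of 0 (145155848 to 145157785). A peak on exon 9 had 5.95 and an FDR of 45.8%. The ZEB2 promoter peaks had 7.95 and 6.55 with FDRs of 43.6% and 46.6%, and no intron peak was annotated to the gene. The 2 ZEB2 peaks with an FDR of at most 5% were on the 3′ UTR and on exon 8. At the miR-200 genes, 1 promoter peak was named for MIR200B, with 6.06, 28 tags and an FDR of 10.4%. MIR200B also named 2 intergenic peaks, with FDRs of 45.93% and 47.97%, and no peak was named for MIR200A, MIR200C or MIR141.

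A further 3 peaks outside the loci had a fold of at least 10 and an FDR of at most 5%. A peak on chromosome 7 (77648156 to 77648709) named for RP5-1185I7.1 had 12.59, 29 tags and an FDR of 0.320%. SH3BGRL3, which encodes a thioredoxin-like protein, had 10.72, 43 tags and 2.17% (chromosome 1, 26611128 to 26611928). REM2, a small GTPase gene, had 10, 32 tags and 3.96% (chromosome 14, 23355460 to 23356182), 231 bp from the 3′ end of the named transcript. Each had at most 1 or 2 other peaks within 20 kb, none at an FDR of at most 5%.

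Another 4 peaks had an FDR of at most 5% with a fold under 10. They held 41 to 75 tags over 865 to 2229 bp. The peak on chromosome 7 (107559382 to 107561610) was named for LAMB1, a laminin chain gene. The spanning gene was DLD, which encodes a subunit shared by the mitochondrial dehydrogenase complexes, and the peak centre was 1152 bp from the DLD 3′ end. It was 2229 bp wide and had 75 tags, a fold of 6.67 and an FDR of 0. The remaining 3 were named after their values were seen. TAP2, which moves peptides to class I molecules, had 5.45 with 57 tags and an FDR of 1.10%, below the class median of fold. LEMD2, an inner nuclear membrane gene, had 7.28 with 43 tags and 1.10%, and KLHL31, a Kelch family gene, had 7.37 with 41 tags and 0.480%. The centres of both lay within 1 kb of the 3′ end of their named transcripts, at 536 and 271 bp.

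The other peaks among the 20 highest rested on 14 to 27 tags and had FDRs above 5%. RPH3A, a synaptic vesicle effector gene, and GATM, which makes the precursor of creatine, both had 11.48, with FDRs of 10.2% and 24.9%. A peak named for LTV1, a ribosome assembly factor, had the same 11.48 and 19.95%, but the gene spanning it was PHACTR2. A peak on chromosome 1 (100653455 to 100654234) had 10.6 (6.22%) and OSCAR, an immunoglobulin-like receptor gene of osteoclasts, 10.04 (7.48%). The rest of the 20 highest were CFL1P5 at 9.85 (32.3%), GLIPR1L2 at 9.71 (36.3%), snoU13 at 9.71 (26.1%, spanned by IMMP2L) and the receptor kinase gene MERTK at 9.7 (7.34%). Among the 16 peaks with a fold of at least 10, 10 had an FDR of at most 5% and 6 did not.

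The widest 3′ UTR peaks were not the highest. RP11-326G21.1 named a peak of 6074 bp with 261 tags on chromosome 1 (145008591 to 145014664), the widest in the whole list, with a fold of only 3.07 and an FDR of 47.2%. By fold it ranked 67031 of 67071. UNC5CL had 2506 bp, 101 tags and 5.72 (FDR 28.18%), a Y_RNA-named peak 2096 bp, 53 tags and 4.11 (45.4%), and UBE2H, a ubiquitin-conjugating enzyme gene, 1875 bp, 59 tags and 6.13 (31.6%). Among these and the LAMB1 peak, only the last had an FDR of at most 5%.

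Chromosome 19 had the largest share of its peaks in 3′ UTRs. It held 52 of 1625 peaks (3.20%, 2.40 to 4.18), against 1.52% over the list. Chromosomes 17 (2.22%, 1.65 to 2.92) and 15 (2.12%, 1.40 to 3.07) followed. Chromosomes 13 (0.686%, 0.343 to 1.22) and 18 (0.773%, 0.334 to 1.52) had the smallest shares among the autosomes and X. Of the 14 low-FDR 3′ UTR peaks, 6 lay on chromosome 7 and 4 on chromosome 6, with 4 of those 6 in EZH2. How much 3′ UTR sequence each chromosome holds was not analysed here.

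A protein-coding gene was named for 70.5% of the 3′ UTR peaks, against 45.2% of all peaks. A 3′ UTR follows a stop codon, so this difference comes in part from the rule that chose the peaks and is not a finding. The 720 such peaks named 668 of 20037 protein-coding genes (3.33%). Of these 668 genes, 312 (46.7%, 42.9 to 50.6) also carried a promoter peak, against 33.1% of all protein-coding genes and 58.8% of those with any peak. For genes named by an exon peak the share was 48.6% (45.1 to 52.1) and for those named by an intron peak 46.3% (44.95 to 47.6). For genes named by a downstream peak it was 40.2% (35.8 to 44.7). The interval of the 3′ UTR genes overlapped each of these 3, while that of the downstream genes overlapped neither of the other two. No difference was tested.

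Among chromatin regulators, 3′ UTR peaks were named for 2 of 14 PRC2 genes and 1 of 25 PRC1 genes. They were also named for 3 of 25 genes on a list of histone demethylases and related enzymes. Here and in the lists that follow, a gene is the one with the nearest start site, and each share is read against 3.33% of all protein-coding genes. Besides EZH2 (16.54), the PRC2 gene was RBBP4, a histone-binding subunit, at 6.06 with an FDR of 39.7%. PHC3, a Polyhomeotic subunit of PRC1, had 5.66 (44.5%). The demethylase list had the related enzymes RIOX2 at 7.28 (41.7%, spanned by CRYBG3) and HIF1AN at 6.18 (45.7%). It also had KDM5C, which demethylates lysine 4 of histone H3, at 4.77 (46.98%). Apart from the EZH2 peak none of these had an FDR of at most 20%.

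Genes that act on 3′ UTRs showed only weak peaks. The cleavage and polyadenylation list had 2 of 21 genes, CSTF2T at 6.47 (48%) and NUDT21, which steers the choice of poly(A) site, at 6.14 (40.9%). The microRNA pathway had 2 of 20, PRKRA at 5.82 (42.9%) and the Argonaute gene AGO3 at 5.09 (47.9%). Proteins that bind 3′ UTRs had 2 of 31, IGF2BP2 at 6.18 (37.3%) and IGF2BP3 at 5.87 (30.7%), both mRNA-stabilising factors. The fold of each of these 6 peaks lay between 5.09 and 6.47.

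In the EMT and epithelial lists the ZEB2 peak stood alone. The EMT and mesenchymal list had 2 of 36 genes, ZEB2 and the matrix gene SPARC, which was at 4.89 (47.8%). The epithelial list had 2 of 39, RAB25 at 6.18 (47.01%) and MARVELD3, a tight junction gene, at 5.82 (46.5%).

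By nearest start site, TGF-beta and BMP signalling had 5 of 41 genes (12.2%, 4.08 to 26.2), but 1 of 41 by spanning gene. They included the BMP antagonists CHRD at 6.85 (45.7%) and GREM1 at 6.77 (45.8%) and the inhibitory SMAD6 at 6.18 (33.7%). WNT had 3 of 51 (4 by spanning gene), with APC at 6.55 (38.8%), ROR1 at 6.54 (34.8%) and FZD3 at 6.18 (38.1%). The RAS and MAP kinase list had 3 of 30, with PDGFRA at 7.06 (25.8%), SPRY2 at 7.06 (37.9%) and SOS1 at 6.47 (38.9%). Hippo had 1 of 29, VGLL3 at 6.55 (34.1%), and hypoxia 1 of 28, PFKFB4 at 7.06 (40.9%). No peak of these 5 lists had an FDR of at most 20%.

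The cell cycle list had 1 of 54, E2F6 at 6.55 (39.8%), and tumour suppressors had 4 of 38, with DLC1 at 7.06 (44.7%), APC at 6.55 and WT1 at 5.66 (38.8%). F-box ubiquitin ligase genes had 4 of 63, with FBXO10 at 7.28 (37.5%), FBXO21 at 7.06 (27.2%) and FBXW11 at 6.48 (37.2%). Tripartite motif genes had 1 of 73, TRIM46 at 5.3 (48.9%).

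The large families gave 27 of 509 numbered ZNF genes (5.30%, 3.52 to 7.62) and 19 of 396 solute carrier genes (4.8%, 2.91 to 7.39). ZNF462 (8.08, FDR 42.5%), ZNF195 (8.01, 32.8%) and ZNF678 (8, 34.35%) led the first, and 1 of its 27 peaks had an FDR of at most 20%. SLC8A3 (7.89, 37.7%), SLC41A2 (7.28, 37.8%) and SLC25A24 (7.06, 47.8%) led the second. Protocadherin genes had 2 of 66, PCDH7 at 6.54 (37.18%) and PCDHB4 at 6.18 (45.5%). RAB genes had 2 of 74, RAB25 and RAB29, the second at 5.84 (34.95%), and cytosolic ribosomal protein genes had 1 of 86, RPL19 at 6.26 (48.9%, spanned by STAC2). No 3′ UTR peak was named for any of 39 HOX genes (95% exact interval up to 9.03%) or 69 replication-dependent histone genes (up to 5.21%). A peak on the 3′ UTR of a gene shorter than 3 kb would be classed as a promoter peak and not counted. Such a gene could still be named by a peak further from its start site. Gene length was not analysed here, so these 2 counts of 0 are not read against 3.33%. Over the 720 peaks named for protein-coding genes the median fold was 5.97, with 37 at an FDR of at most 20%. The lists were not tested against other genes.

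The counts of the lists depended on how a peak was given to a gene. Of the 44 peaks named from the lists, 15 were spanned by the named gene and 2 by another, and 27 had no listed protein-coding transcript over them. By spanning gene, 562 genes had a 3′ UTR peak (2.80%). The count was then 1 for the PRC2, histone demethylase, cleavage and polyadenylation, TGF-beta and BMP, tumour suppressor, RAB and HOX lists. It was 0 for PRC1, 3′ UTR-binding, EMT, Hippo and hypoxia genes, and also for replication-dependent histone genes. It was 1 for cell cycle and ribosomal protein genes, 2 for microRNA pathway, epithelial, RAS and MAP kinase and protocadherin genes, and 3 for tripartite motif and F-box genes. It was 24 for ZNF genes and 14 for solute carrier genes. These genes need not be those named by start site.

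**Figure D5:**
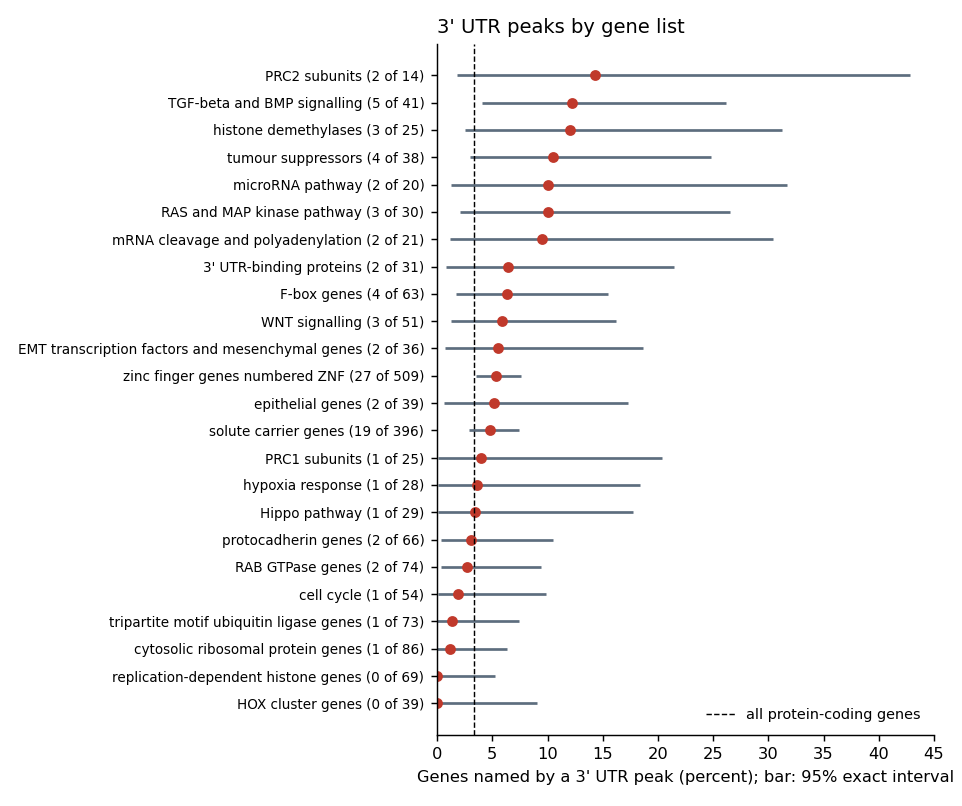
Percent of the genes of each list that were named by a 3′ UTR peak through the nearest start site (points), with 95% exact intervals (bars) and the number of genes in brackets. The dashed line marks all protein-coding genes, 3.33%. The largest share, 14.3%, rests on 2 of 14 PRC2 genes, and HOX and replication-dependent histone genes are at 0. Peaks within 3 kb of a start site are promoter peaks and do not enter the counts.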

How the data were processed

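The deposited table of the JARID2 ChIP library lists hg19 peaks in 1-based coordinates. The submitters' processing notes name ChIPseeker, Bowtie 0.12.8, bcl2fastq, MACS and MACS2 and their settings were not stated. The authors' tag count per peak is whole and unscaled. Fold enrichment, as deposited, is a ratio on a linear scale, and the FDR is in percent, both per the file headers. The deposited score has an unreadable header and was read as −log10 p multiplied by 10, since it starts at 30 and stands beside the fold. The library depth is unknown, since only peaks are listed. Per the labels' protocols, libraries were made with a transposase kit and 15 PCR cycles, so tags need not be independent molecules.

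3′ UTR peaks were taken by annotation. Host transcripts were sought among the 36335 transcripts the list names, 19730 of them of protein-coding genes, and the spanning one with the nearest 3′ end was used. Symbols were matched to 20037 protein-coding genes of RefSeq GRCh38.p14, for names and gene order only. Intervals are 95% exact binomial (Clopper-Pearson) for shares, order-statistic for medians and Poisson for tags. No test was made, because there was 1 library per group. Functions were checked on simulated peaks (Python 3.11.15, pandas 2.3.3, scipy 1.17.1).

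Named were the 20 highest 3′ UTR peaks, the 5 with most tags, the 5 widest, the symbols with most peaks and up to 3 members of each of 24 gene lists. The members, lists and loci were chosen with earlier results of these data known. The JARID2 locus was taken up to the first listed DTNBP1 transcript.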

Additional observations from a re-analysis of the deposited data

How the results depend on the processing

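Over 26 alternatives of 5 summary values, 14 stayed within the 95% interval of the value reported and 12 did not. The share of peaks annotated to a 3′ UTR, 1.52%, was 1.84% (1.57 to 2.15) at −log10 p of at least 5. It was 1.68% (0.921 to 2.80) at an FDR of at most 5% and 1.91% (1.43 to 2.48) at an FDR of at most 20%. The intervals of both FDR selections hold 1.52%, though the values lie outside the interval of the value reported. The share of 3′ UTR peaks with an FDR of at most 5%, 1.37%, became 5.19% when the limit was 20%, and 8.81% among the 159 peaks with −log10 p of at least 5, which follows from the stricter selection. Their median fold, 5.95, became 6.97 in that selection. The share whose named transcript spans the peak, 27.0%, was 24.1% by the peak centre, 20.5% for the whole peak and 60.2% with any listed transcript. The share of protein-coding genes named, 3.33%, was 0.529% at −log10 p of at least 5, 1.25% where the named transcript spans the peak and 2.80% by spanning gene. For the share of 3′ UTR peaks with a low FDR, the wider limit could only raise the value. Any listed transcript could only raise the spanned share, and the centre and whole-peak rules could only lower it. Restricting peaks by −log10 p or by the named transcript could only lower the share of genes named. The settings by spanning gene or distance to the 3′ end were added after the data were seen. No paired analysis was possible because each group has 1 library. Tag counts of 9 to 18 limit most members.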

Other observations

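Several genes carried more than 1 3′ UTR peak. There were 54 pairs of 3′ UTR peaks within 5 kb of each other, made of 101 peaks. Of 562 spanning genes, 35 had 2 or more such peaks and 3 had 3 or more, namely EZH2 with 5 and CLCN5 and ABCC5 with 3 each. CLCN5, an endosomal chloride channel gene on chromosome X, had folds of 5.25 to 5.82 over 4.98 kb, and ABCC5, a drug and nucleotide exporter gene on chromosome 3, had 5.09 to 7.06 over 46.4 kb. Neither had a peak with an FDR under 41.3%. In EZH2 the 5 peaks spanned 14.6 kb and had folds of 9.35 to 57.62. Among named symbols, Y_RNA had 12 peaks on 9 chromosomes (4.11 to 7.94) and snoU13 had 5 on 4 chromosomes (4.2 to 9.71). Both names belong to many copies, so these are separate places. RNU7-20P had 4, all in EZH2, and 7 symbols had 3 each, among them COL4A3 at 6.47 to 7.06. CLCN5 and ABCC5 were named after their values were seen.

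A microRNA gene was named for 10 of the 1021 3′ UTR peaks (0.979%), against 1.34% of all peaks. MIR548E had the highest, 8.6 on chromosome 10, from 34 tags, at an FDR of 14.4%. Its start site was 23034 bp from the peak. These microRNA genes too were named after their values were seen. The others had folds of 3.83 to 7.28 and FDRs of 22.2% or more, and the gene spanning 2 of them, both named for MIR1257, was the cadherin gene CDH4. MIR3666, at 3.83, lay in the body of FOXP2, a forkhead factor gene.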
